A study of Mus musculus with 21 samples.

Results

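Single muscle fibers were isolated from mouse soleus, a slow muscle, and from extensor digitorum longus (EDL), a fast muscle, and the RNA of each fiber was amplified and hybridized to 1 one-colour array. The series holds 21 arrays, 11 of type 1 myofibers from soleus and 10 of type 2B myofibers from EDL, all from CD1 mice of 3 months. A piece of each myofiber had been typed by protein gel, so the type 2B myofibers are fibers in which MyHC-2B was the myosin heavy chain seen on the gel. The 2 sets compared here were chosen by a measured value: the type 2B myofibers were ordered by the signal of Myh1, and the 4 with the highest signal (Myh1-high) were compared with the 4 with the lowest (Myh1-low) at every other probe of the array. This uses 8 of the 21 samples. The rule drops a myofiber whose Myh1 spot carries an outlier flag, and it dropped 0 of the 10 type 2B myofibers. The 2 myofibers between the sets were described beside them but not tested.

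A myosin heavy chain is the motor protein of the sarcomere, and the isoform that a myofiber makes sets how fast it shortens. Myh4 encodes MyHC-2B, the fastest isoform of mouse limb muscle, Myh1 encodes MyHC-2X, the next fastest, Myh2 encodes MyHC-2A and Myh7 encodes the slow isoform. The fast genes lie side by side in 1 cluster, and fibers that pass from one type to the next can hold RNA of both neighbours. Myofibers are named below as the labels name them, with E for EDL, the number of the myofiber and, after the point, the number of the mouse. The Myh1-high set was E8.3, E11.9, E9.6 and E13.3, and the Myh1-low set was E14.3, E9.5, E15.3 and E7.7. Each set came from 3 mice, and mouse 3 gave 2 myofibers to each set. The labels call the mice male and the study's methods call them female. The Y-linked genes Ddx3y and Eif2s3y were well above background on 21 and 17 of 21 arrays. Of the 2 probes of Xist, the RNA of the inactive X chromosome, one was on 0 and the other on 9 of 21. These signals do not settle the label.

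Values below are log2 normalized signals (the scanner's processed signal, quantile normalized over the 21 arrays), so a difference of 1 is a factor of 2 on that scale. Myh1, read by 1 probe on chromosome 11 (mm9, chr11:67038002-67038061), was 11.717 in E8.3, 10.435 in E11.9, 10.401 in E9.6 and 9.401 in E13.3. It was 9.187 in E10.4 and 8.986 in E12.5, the myofibers between the sets. In the Myh1-low set it was 8.890 in E14.3, 7.127 in E9.5, 4.556 in E15.3 and 1.709 in E7.7, and in E15.3 and E7.7 it was not well above background. These values chose the sets and are given as a description with no test. The members just inside the limits, E13.3 and E14.3, differed little from their neighbours E10.4 and E12.5, so the low set joins a myofiber next to the middle of the order to 2 in which Myh1 was not well above background. With the 75th percentile of each array as the scale in place of quantile normalization, the Myh1-high set was the same and E12.5 and E14.3 exchanged places. In type 1 myofibers Myh1 had a median of 1.69, with a range from 1.64 to 9.16 over 11 myofibers.

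The arrays of the 2 sets were not equally bright, and this touches every result below. The 75th percentile of the processed signal was 411 scanner units in E8.3, 180 in E11.9, 351 in E9.6 and 143 in E13.3. It was 68.2 in E14.3, 422 in E9.5, 52.8 in E15.3 and 70.6 in E7.7, so only E9.5 among the Myh1-low myofibers was as bright as the Myh1-high ones (exact permutation test over 70 groupings, two-sided p = 0.23, smallest possible 0.029). The share of spots flagged as positive and significant was 81.8% ± 5.8 (SD, n = 4) in Myh1-high and 69.9% ± 12.2 (SD, n = 4) in Myh1-low arrays (exact permutation p = 0.17). On the log2 scale the lowest signal that counted as well above background was 2.59 to 4.37 in the Myh1-high arrays, 2.82 in E9.5 and 5.233 to 5.897 in the other Myh1-low arrays. A dim probe could therefore be measured on the Myh1-high arrays and not on 3 of the 4 Myh1-low arrays. Slides were also split: the Myh1-high arrays lay on slides 1 and 2 and the Myh1-low arrays on slides 1, 3 and 4, and slide 1 alone held both (E8.3 and E9.6 against E9.5). The part of brightness and slide in the results was not tested beyond the values given beside them.

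**Figure D1:**
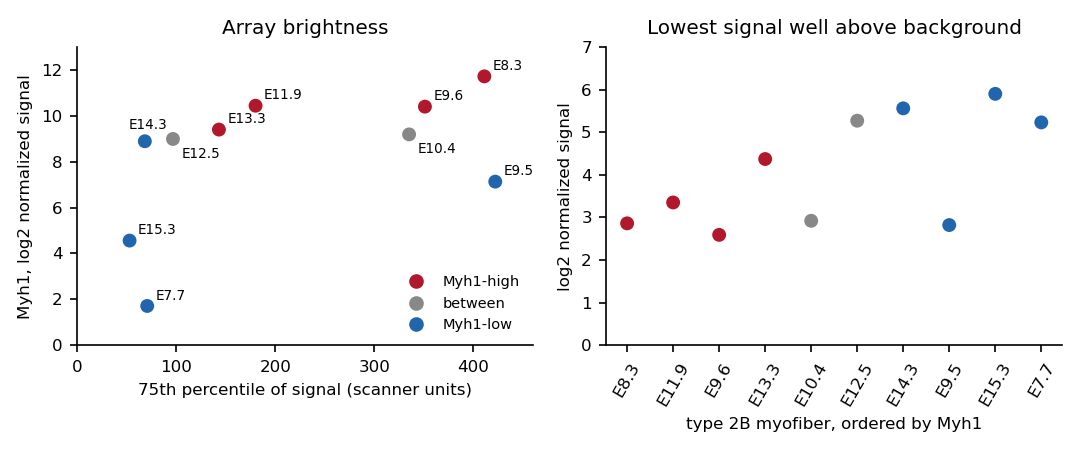
Left, Myh1 (log2 normalized signal) against the 75th percentile of the processed signal in scanner units, 1 point for each of the 10 type 2B myofibers. Right, the lowest log2 normalized signal that was well above background on each array. E9.5 is the only Myh1-low array as bright as the Myh1-high arrays, and the other Myh1-low arrays have floors of 5.233 to 5.897.

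Myh4, the gene that defines these myofibers, was abundant in all of them and lower in the Myh1-high set. Its signal was 15.06 in E8.3, 14.09 in E11.9, 15.19 in E9.6 and 14.64 in E13.3. It was 15.39 in E14.3, 15.29 in E9.5, 15.47 in E15.3 and 15.29 in E7.7. The sets did not overlap, as at 2.06% of all probes in this direction, and E11.9 was the lowest. Between the sets, E10.4 read 15.11, within the range of the high set, and E12.5 read 15.34, within that of the low set. The difference, Myh1-high minus Myh1-low, was -0.61 with an SE of 0.34, which did not pass the test across all probes (limma, Benjamini-Hochberg adjusted p = 0.52). The exact permutation test gave p = 0.029 before any adjustment, the smallest it can give for 4 against 4. Since the sets did not overlap, the same order within slide 1 and within mouse 3 was fixed in advance and adds no support. On slide 1 the nearest values were 15.191 in E9.6 and 15.286 in E9.5. In type 1 myofibers Myh4 had a median of 3.38 and a highest value of 8.28, which lies below every type 2B myofiber. The Myh1 and Myh4 probes share a run of at most 10 bases. A lower value was not particular to Myh4: the 8 adult myofiber markers tested had a median difference of -0.64, with 0 above 0. The 9 reference genes tested had a median of -0.32, with 3 above 0.

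**Figure D2:**
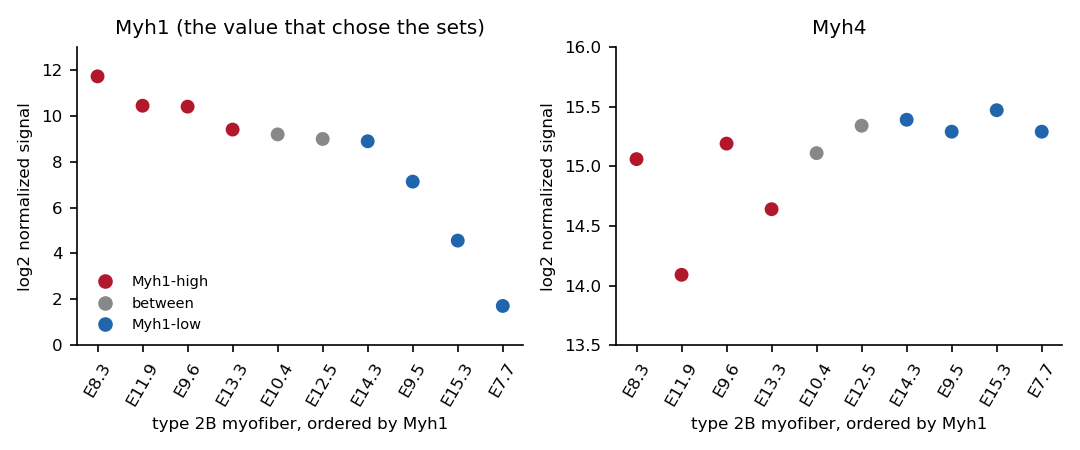
Log2 normalized signal of Myh1 (left, axis from 0) and Myh4 (right, axis not from 0) in the 10 type 2B myofibers, in order of Myh1, 1 point a myofiber. Myh4 lies between 14.09 and 15.19 in Myh1-high and between 15.29 and 15.47 in Myh1-low myofibers.

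No other myosin heavy chain passed the test. Myh2 lay near the background, from 1.86 to 3.59 in Myh1-high and from 2.06 to 3.48 in Myh1-low myofibers, and was too dim to be tested. Myh7 was 6.42 to 6.90 in Myh1-high and 6.76 to 7.50 in Myh1-low myofibers, against a median of 15.49 in type 1 myofibers (difference -0.64, SE 0.33, limma adjusted p = 0.48). Both probes of the embryonic gene Myh3 read at most 3.95 in the 8 myofibers. Of the perinatal gene Myh8, 2 probes read 14.60 to 15.89 in the 8 myofibers and 12.57 to 15.77 in type 1 myofibers, and the other 2 read at most 3.55 in them. The brighter pair differed between the sets by -0.44 (SE 0.34) and -0.18 (SE 0.32), with limma adjusted p of 0.64 and 0.86, and at the first of them the sets did not overlap. Myh13 of extraocular muscle, Myh6 of heart, Myh7b, Myh14, which encodes a non-muscle myosin, and Myh15 had differences between -0.74 and 0.32, and none passed. The long non-coding RNA linc-Myh (2310065F04Rik), transcribed beside the fast myosin cluster and known to favour the fast glycolytic programme, was 9.47 to 11.14 in Myh1-high and 9.32 to 10.47 in Myh1-low myofibers (difference 0.35, SE 0.45, limma adjusted p = 0.80).

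Across the array, 45255 probes could be tested, and 1 passed a Benjamini-Hochberg adjusted p of 0.05 (limma with mouse as a random block). It was higher in Myh1-high, which is 0.00221% of the probes tested, and 0 probes (0%) passed in the lower direction. At an unadjusted p below 0.05 there were 3691 higher (8.16%) and 1708 lower probes (3.77%), and without overlap between the sets 1649 higher (3.65% of 45209 with enough values) and 933 lower (2.06%). The median difference over all tested probes was 0.03. The count depended on E9.5, the bright Myh1-low array: without it 211 probes were higher and 38 lower, and the sets then no longer overlapped in brightness either (143 to 411 against 52.8 to 70.6 scanner units). Leaving out any other single myofiber gave 0 calls. Since the tests rest on single myofibers, several of 1 mouse, their p-values measure the spread between these myofibers.

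The probe that passed reads the reverse strand of a large intergenic region on chromosome 2 (mm9, chr2:108456668-108532418). Its position is chr2:108524823-108524882, and its sequence, shown because it carries the only call, reads 5′ to 3′ as follows.
Probe of the chromosome 2 region: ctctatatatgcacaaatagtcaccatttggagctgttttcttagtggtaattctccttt
It was 5.75 in E8.3, 5.74 in E11.9, 5.43 in E9.6 and 4.86 in E13.3, and 1.83 in E14.3, 1.69 in E9.5, 1.78 in E15.3 and 1.74 in E7.7 (adjusted p = 0.049). It was well above background on 4 of 4 Myh1-high and 0 of 4 Myh1-low arrays, so its level in the low set has only a bound. It was flagged positive on 4 of 4 Myh1-high and 0 of 4 Myh1-low arrays, and so met the filter for testing (positive on at least 50% of the 8) only through the set in which it is high, and over probes positive in all 8 myofibers there were 0 calls. Its Myh1-high mean was 1.48-fold above the mean floor of the 4 Myh1-low arrays, a figure that rests on the low floor of E9.5. The floors of the other Myh1-low arrays, 5.233 to 5.897, overlap its Myh1-high values of 4.86 to 5.75, so against those arrays there is no bound. E12.5 resembled the high set at 5.17, and E10.4, whose array was bright, the low set at 1.68. E9.5 read 1.69 although its floor was 2.82. The call was lost with slide as a random block (adjusted p = 0.067), without the mouse block (0.054) and with the 75th percentile as the scale (0.27), and its adjusted p ran from 0.023 without E9.5 to 0.71 with slide as a fixed block.

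A group of abundant probes with high values in the Myh1-high set, noticed after the values were seen, lies in satellite repeats. Satellite DNA is the tandemly repeated sequence around mouse centromeres. Short stretches of it placed on chromosome 9 near 3 Mb and on chromosome 2 in this build carry predicted transcripts. The 7 probes described here read transcripts picked after their values were seen, and other probes of such stretches were not searched for. Their differences and lack of overlap therefore carry no support. The probes shown share runs of bases, so they cannot count as separate genes. In the first set the capitals mark the run of 25 bases that 3 probes of chromosome 9 share.
ENSMUST00000099035, chr9:3038257-3038316: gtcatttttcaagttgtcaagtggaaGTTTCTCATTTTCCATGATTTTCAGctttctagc
ENSMUST00000099050, chr9:3018028-3018087: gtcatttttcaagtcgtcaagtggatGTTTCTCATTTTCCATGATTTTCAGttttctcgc
ENSMUST00000099046, chr9:3025159-3025218: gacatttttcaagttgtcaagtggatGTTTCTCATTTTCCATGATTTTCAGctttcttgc
In the second set the capitals mark the run of 13 bases shared by 2 more probes of chromosome 9 and 1 of chromosome 2.
ENSMUST00000099037, chr9:3034517-3034576: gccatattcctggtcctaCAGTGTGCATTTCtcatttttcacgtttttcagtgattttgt
ENSMUST00000099050, chr9:3021700-3021759: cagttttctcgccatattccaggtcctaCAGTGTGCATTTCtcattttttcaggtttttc
ENSMUST00000099683, chr2:98507014-98507072: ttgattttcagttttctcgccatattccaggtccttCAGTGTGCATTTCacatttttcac

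The median of the 7 satellite-like probes was 15.52 in E8.3, 16.55 in E11.9, 15.95 in E9.6 and 16.42 in E13.3. It was 12.60 in E14.3, 14.58 in E9.5, 12.55 in E15.3 and 11.35 in E7.7, so the sets did not overlap and E9.5 was the nearest of the low set. The myofibers between the sets lay between them in value too for E10.4, at 14.91, and within the high set for E12.5, at 15.70. The differences of single probes ran from 3.23 to 3.98 with SEs of 0.58 to 0.65, and none passed over all probes (limma adjusted p = 0.26 for each). All 7 passed when E9.5 was left out, but they were chosen after the values were seen, so this carries no support. The gap was narrower on slide 1, where E8.3 and E9.6 stood at 15.52 and 15.95 and E9.5 at 14.58, than in mouse 3, where E8.3 and E13.3 stood at 15.52 and 16.42 and E14.3 and E15.3 at 12.60 and 12.55. All 7 were well above background on all 8 arrays. In type 1 myofibers, where Myh1 was well above background on 3 of 11 arrays, the same median ran from 12.96 to 16.76, a range that covers the whole Myh1-high set.

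**Figure D3:**
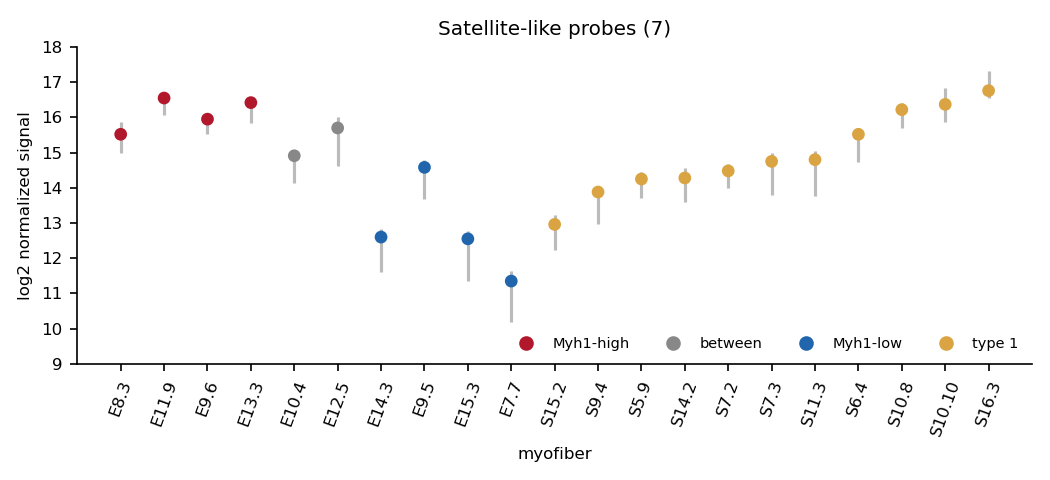
Median log2 normalized signal of the 7 satellite-like probes in each myofiber (points), with lines from the lowest to the highest probe. Type 2B myofibers stand in order of Myh1 and type 1 myofibers in order of their median. The Myh1-high myofibers lie between 15.52 and 16.55, the Myh1-low between 11.35 and 14.58, and the type 1 myofibers span 12.96 to 16.76.

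Other probes with small p-values also read intergenic regions. A region of chromosome 7 (chr7:67001975-67050575) was chosen after its values were seen. One of its probes read 6.11, 7.07, 5.59 and 7.26 in the Myh1-high and 1.98, 2.62, 1.81 and 1.74 in the Myh1-low myofibers (limma adjusted p = 0.057). Its Myh1-high mean was 3.1-fold above the mean floor of the Myh1-low arrays, a figure raised by the low floor of E9.5. The floors of the other Myh1-low arrays, 5.233 to 5.897, reach above its lowest Myh1-high value of 5.59. The probe was flagged positive on 4 of 4 Myh1-high and 1 of 4 Myh1-low arrays, and well above background on 4 of 4 and 0 of 4. It met the filter for testing through the Myh1-high set alone, so its p carries no support. The myofibers between the sets read 11.98 and 10.20 there, above every Myh1-high myofiber, so the level of this region did not follow the order of Myh1.

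The genes with the smallest p in the higher direction did not pass, and most were dim. Kcnab1, which encodes a beta subunit of potassium channels, was the brightest of them. It read 11.82 in E8.3, 13.09 in E11.9, 12.94 in E9.6 and 12.41 in E13.3, against 10.16 in E14.3, 11.02 in E9.5, 9.96 in E15.3 and 10.27 in E7.7 (difference 2.20, SE 0.39, limma adjusted p = 0.26). It was well above background on all 8 arrays, the sets did not overlap, and E10.4 and E12.5, at 11.14 and 11.60, lay between them. The predicted gene Gm5622 spread from 6.01 to 11.66 in the high set and from 1.73 to 4.15 in the low set. Wdpcp, a cilium and planar polarity gene, was 5.44 to 6.96 against 1.82 to 4.14. Cd34, a surface marker of endothelial and stem cells, was 4.29 to 5.14 against 1.823 to 3.097 at this probe, while its brighter probe differed by only 0.72 (p = 0.46 before adjustment). The dim probes among these genes were flagged positive on 4 of 4 Myh1-high arrays, which alone met the filter for testing, and on 1 of 4 Myh1-low arrays at Gm5622, Wdpcp, Cd34, Ramp1, Vmn2r-ps54 and LOC664787. Gm5622, Wdpcp and this Cd34 probe were well above background on 1 of the 4 Myh1-low arrays. The same count well above background held for 1700040F15Rik, Wdr64, the vomeronasal pseudogene Vmn2r-ps54 and LOC664787. Ramp1, a partner of calcitonin-family receptors, was 3.84 to 4.90 against 1.82 to 2.47 with no Myh1-low array well above background, and at its brighter probe the sets averaged 7.99 and 8.20.

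In the lower direction most of the leading genes were brighter, and again none passed (limma adjusted p = 0.26 for each). Atp6v1e1, a subunit of the proton pump of lysosomes and vesicles, read 10.41 in E8.3, 10.30 in E11.9, 10.00 in E9.6 and 10.22 in E13.3. It read 13.20 in E14.3, 11.86 in E9.5, 11.71 in E15.3 and 12.45 in E7.7, a difference of -2.08 with an SE of 0.40. The high set was tight and lay wholly below the low set. Rabac1, which acts on Rab proteins in vesicle traffic, averaged 11.62 ± 0.29 in Myh1-high and 13.56 ± 0.55 in Myh1-low myofibers (SD, n = 4 each) at one probe without overlap, and a second probe of the gene averaged 11.41 and 11.54, a difference of -0.13. Rdh8, a retinol dehydrogenase, was 4.09 to 5.38 against 6.76 to 8.66. Frs2, an adaptor of growth factor receptors, was 6.51 to 7.06 against 7.94 to 9.85, with 14.18 in E10.4 alone. Stk19 differed by -1.86 and the adenylyl cyclase gene Adcy10 also by -1.86, with -0.21 at a second Adcy10 probe. Mapk1ip1l, Esco1, Gbx1 and Pou2f2 had differences of -2.29, -4.07, -2.32 and -2.05, and each of these 4 has a further probe with a difference above 0 (0.26, 0.92, 0.10 and 0.46). Another Mapk1ip1l probe, brighter than its other probes, differed by -0.58. At the probes with lower values, Gbx1 and Pou2f2 were dim. Gbx1 was well above background on 2 arrays of each set, and Pou2f2 on 2 Myh1-high arrays and 1 Myh1-low array.

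Genes of the fast sarcomere and of calcium release leaned to the Myh1-low set. All 18 on the list were measured, 0 had a difference above 0, and the median difference was -0.45 beside 0.03 over all probes tested. None passed the adjusted test. At an unadjusted p below 0.05, 3 were lower (3.77% of all probes were), and 8 were lower without overlap, where 2.06% of all probes were. Actn3, the alpha-actinin of fast fibers, read 14.530, 14.185, 14.304 and 15.140 in the Myh1-high and 15.522, 15.359, 15.877 and 15.492 in the Myh1-low myofibers (difference -1.01, SE 0.33, limma adjusted p = 0.30). The calcium release channel Ryr1 and the calcium store protein Casq1 each differed by -0.69 (SE 0.30), and creatine kinase Ckm by -0.71 (SE 0.33). The median level of the list was 14.301 to 14.853 in Myh1-high and 15.057 to 15.558 in Myh1-low myofibers. The 9 reference genes tested had a median of -0.32, with 3 above 0. Among them Gapdh differed by -0.68 (SE 0.32) and Rplp0 by -0.43 (SE 0.32), while Ppia differed by 0.34 and a further Rplp0 probe by 0.05.

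Slow sarcomere and calcium genes had a median difference of 0.05 over the 18 tested. Myoglobin (Mb), the oxygen store of oxidative fibers, was the 1 gene of the list with an unadjusted p below 0.05 (8.16% of all probes were higher). It was 10.850 in E8.3, 9.320 in E11.9, 9.496 in E9.6 and 10.036 in E13.3, and 6.290 in E14.3, 9.259 in E9.5, 7.426 in E15.3 and 8.820 in E7.7. The sets did not overlap, but E11.9 and E9.5 lay close (difference 2.14, SE 0.66, limma adjusted p = 0.29). E12.5, between the sets, read 10.798, close to E8.3, and type 1 myofibers had a median of 15.49. Tnnt1, the slow troponin T, and the slow calcium pump Atp2a2 differed by -0.44 and 0.81, and Mybpc1 by -0.86 (limma adjusted p of 0.76, 0.55 and 0.42). A second Atp2a2 probe differed by 2.10 (SE 0.95, limma adjusted p = 0.43). That probe was well above background on 3 Myh1-high arrays and 1 Myh1-low array.

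Among regulators of fiber type, 47 were tested and the median difference was 0.02 (-0.18 with the 75th percentile as the scale), with 6 higher and 1 lower at an unadjusted p below 0.05 (8.16% and 3.77% of all probes) and none past the adjusted test. The myogenic factors stood in different directions. Myod1, which is known to be more abundant in fast muscle, was 10.51 to 11.73 in Myh1-high and 8.81 to 10.43 in Myh1-low myofibers (difference 1.37, SE 0.44, limma adjusted p = 0.29). Myog, known to rise in denervated muscle, differed by 2.02 (SE 0.59), with E9.5, at 5.85, inside the range of the high set. Myf6, the myogenic factor of mature fibers, was 8.51, 9.04, 10.25 and 9.53 in the Myh1-high and 10.55, 10.51, 11.60 and 12.58 in the Myh1-low myofibers (difference -1.99, SE 0.55, limma adjusted p = 0.26). Nrf1, a transcription factor for genes of mitochondrial proteins, was 11.23 to 12.52 against 8.01 to 10.99 at one probe (difference 2.60, SE 0.72, limma adjusted p = 0.26), but a second probe well above background on all 8 arrays differed by -0.17.

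**Figure D4:**
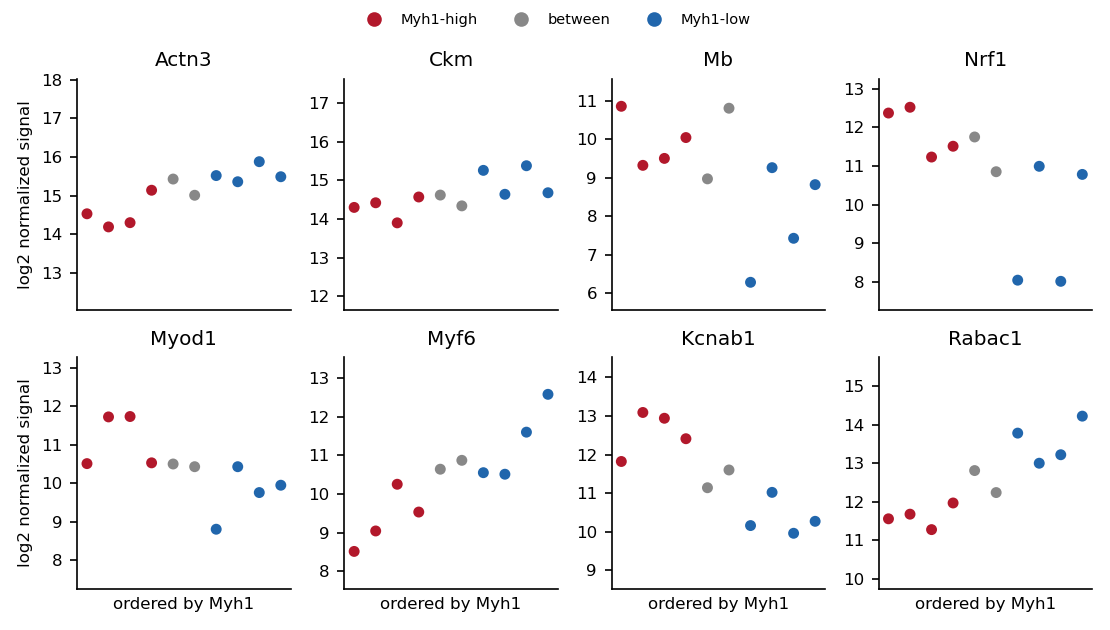
Log2 normalized signal of 8 genes in the 10 type 2B myofibers in order of Myh1 from left to right, 1 point a myofiber; axes differ between panels. Actn3, Ckm, Myf6 and Rabac1 are lower, and Mb, Nrf1, Myod1 and Kcnab1 higher, in every Myh1-high than in every Myh1-low myofiber, and none passed the adjusted test.

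The metabolic lists showed small shifts. Glycolysis and glycogen genes had a median difference of -0.28 over 40 tested, with 2 higher and 2 lower at an unadjusted p below 0.05 (8.16% and 3.77% of all probes). Tpi1, an enzyme of glycolysis, was 14.440 to 15.201 against 15.573 to 15.729 (difference -0.73, SE 0.31, limma adjusted p = 0.40), and Pgam1 differed by 1.27 (SE 0.51). Ldhb, the lactate dehydrogenase of oxidative tissue, was well above background on 1 array of each set. The lactate carrier Slc16a1 was 2.76 to 5.59 against 1.73 to 2.71, well above background on 2 Myh1-high and 0 Myh1-low arrays. The respiratory chain list had a median of -0.15 over 76 genes, with 0 higher and 2 lower at an unadjusted p below 0.05 (3.77% of all probes were lower) and 8 lower without overlap (2.06% of all probes), among them Atp5e, a subunit of the ATP synthase (difference -0.87, SE 0.31, limma adjusted p = 0.33), and the cytochrome c oxidase subunits Cox6a2 and Cox4i1 (-0.65 each). The tricarboxylic acid cycle had a median of -0.16 over 32 genes, with Idh3b, Sdhb and Sdha at -1.14, -0.74 and -0.85, and a second Sdhb probe at 0.04. Fatty acid genes had a median of -0.02 over 34, and Echs1 differed by -1.10 (SE 0.43).

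**Figure D5:**
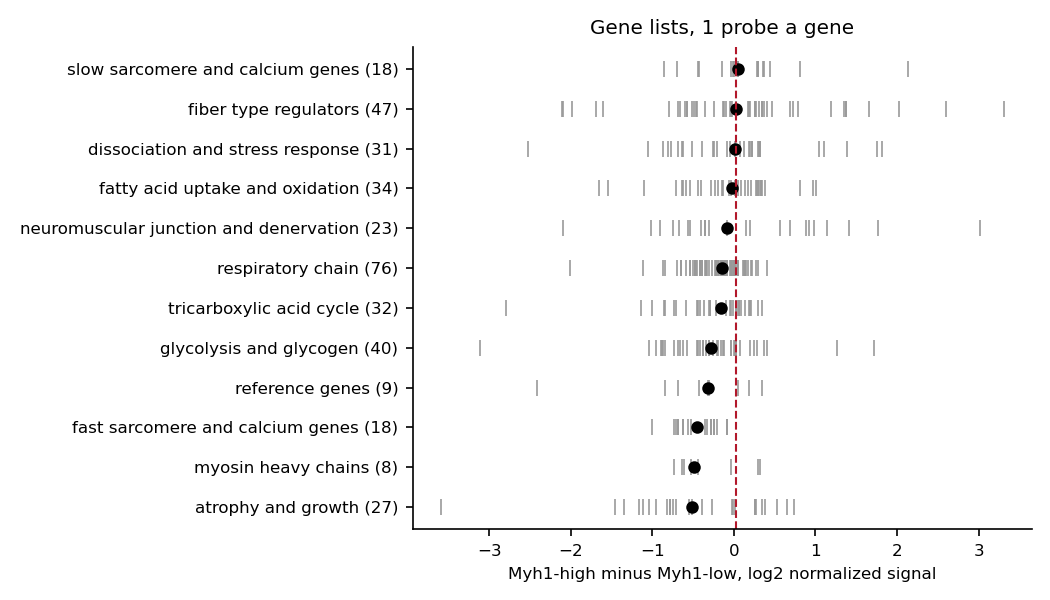
Difference between Myh1-high and Myh1-low myofibers (log2 normalized signal) for each gene of 12 lists (ticks, 1 probe a gene, number tested in brackets) with the list median (points); the dashed line is the median of all tested probes, 0.03. The medians run from -0.52 for atrophy and growth to 0.05 for slow sarcomere and calcium genes.

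Genes of the neuromuscular junction and of denervated muscle had a median of -0.08 over 23, with 3 higher and 1 lower at an unadjusted p below 0.05 (8.16% and 3.77% of all probes). Etv5, a transcription factor known from the synaptic nuclei of muscle, was 9.97 to 10.74 in Myh1-high and 7.67 to 9.65 in Myh1-low myofibers (difference 1.77, SE 0.45, limma adjusted p = 0.26). Chrna1, the alpha subunit of the acetylcholine receptor, was 8.95, 9.62, 7.93 and 8.14 in the Myh1-high and 3.94, 7.93, 3.83 and 7.60 in the Myh1-low myofibers (difference 3.02, SE 0.92, limma adjusted p = 0.28), and its second probe differed by 3.68. E9.5 and E7.7 stood beside the high set at Chrna1, and E10.4 read 2.56, so its level did not follow the order of Myh1. Colq, which anchors acetylcholinesterase at the synapse, differed by 1.41 and the deacetylase gene Hdac9 by -2.10, with 0.27 and -0.08 at their second probes. Atrophy and growth genes had a median of -0.52 over 27, with 0 higher and 4 lower at an unadjusted p below 0.05 (8.16% and 3.77% of all probes). The growth factor Igf2 differed by -3.59 (SE 1.01), the ubiquitin ligase gene Fbxo40 by -1.46, the mitophagy receptor gene Bnip3 by -0.95 and the cell cycle inhibitor gene Cdkn1a by -1.16, with limma adjusted p of 0.26 to 0.40. A second Fbxo40 probe differed by -0.28, and further Cdkn1a probes by -0.25 and 0.66. Genes of dissociation and stress had a median of 0.01 over 31 (-0.18 with the 75th percentile as the scale), and Atf3 ranged from 6.55 to 13.58 within the Myh1-high set alone, while the chemokine gene Cxcl1 differed by 1.39 (SE 0.70).

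Markers of other cells were checked because cells can stay attached to an isolated fiber; in such RNA, fewer cells of a type and less RNA per cell cannot be told apart. The summed linear signal of 8 adult myofiber markers was 142000 to 214000 in Myh1-high and 243000 to 280000 in Myh1-low myofibers. Of these, 7 were well above background on all Myh1-high arrays and 8 on all Myh1-low arrays. Pygm read 1.92 in log2 in E9.6 against 14.59 to 14.65 in the other Myh1-high myofibers, which lowers the sum of E9.6. Endothelial markers (10) summed to 1900 to 3960 against 1660 to 2740, with Cdh5 well above background on none of the 8 arrays. Satellite cell markers (10) summed to 2020 to 4600 against 1180 to 3380, with Myf5 and Calcr on none. They include the bright Myod1, also counted above among regulators of fiber type, at 10.51 to 11.73 against 8.81 to 10.43 in log2. Connective tissue markers (9 of 10 on the array) summed to 338 to 629 against 205 to 480, with Pdgfra, Lum, Gsn and Dpt on none, and nerve and Schwann cell markers (8) to 633 to 3680 against 671 to 1830. Blood cell markers (12) summed to 3700 to 5290 against 3290 to 4330, adipocyte markers (6) to 212 to 436 against 307 to 448, and smooth muscle and pericyte markers (8, with desmin of myofibers among them) to 12900 to 16000 against 16900 to 21100. The median difference was 0.17 over 9 endothelial markers tested (6 above 0), 0.62 over 8 satellite cell markers (5 above 0) and 0.68 over 4 connective tissue markers (3 above 0). Of single markers, among those with the smallest p in their lists, the endothelial receptor gene Tek was 2.96 to 4.22 against 1.68 to 2.65 and Egfl7 4.56 to 5.40 against 1.67 to 4.28. Fbln1 and Col1a2 of connective tissue differed by 1.61 and 1.01, and Cdh15 of satellite cells by -1.54, while Flt1 differed by -0.56, Dcn by -0.69, Myod1 by 1.37 and a further Fbln1 probe by -0.26. Col1a2 and Cdh15 were well above background on all 8 arrays, whereas on the Myh1-low arrays Tek was well above background on none and Egfl7 and Fbln1 on 1 each. Their part in the results was not tested.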

How the data were processed

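The authors deposited Agilent Feature Extraction 10.7.3.1 output for 21 one-colour mouse arrays (60-base probes, mm9 annotation); RNA of single myofibers had been amplified by whole transcriptome amplification and labelled with a kit for genomic DNA. Its unit is intensity: the deposited processed signal is background-subtracted, and precision is limited by the number of arrays. In the deposited table the columns of E13.3 and E12.5 follow each other's scanner output (Spearman rho across probes 0.999 and 1.0, against 0.897 for their own), so the names and mice of these 2 may be exchanged; scanner files were used. Log2 signals were quantile normalized and averaged per probe without spots carrying outlier flags. Probes positive and significant in at least 50% of the 8 myofibers were tested with limma 3.58.1 (R 4.3.3), with mouse as a random block (duplicateCorrelation) and Benjamini-Hochberg adjustment. Myh1 was left out. Array measures were compared by exact permutation.

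Members and gene lists were chosen with earlier results of these data known. Named were all myosin heavy chain probes and linc-Myh, probes passing an adjusted p of 0.05, otherwise up to 10 genes a direction by smallest p, and up to 4 genes a list by smallest p. Of the array's 55681 probes, 26425 were named by RefSeq accession, 3988 by symbol and 824 by synonym. Lists took the brightest probe of a gene. Some named genes are not reported here. The fit without the mouse block was tested on simulated data with independent myofibers, so the block itself was not covered. Alternatives changed the scale, filter, block, covariate, test and sets, or left out 1 myofiber each.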

Additional observations from a re-analysis of the deposited data

Results flagged for a closer look

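Dixon's test for a value apart from the rest of its group marked 29 of 264 groups of 4 or 10 myofibers looked at, where chance marks about 1 in 20, and the groups share the same 10 arrays.

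E9.5 stood apart within the Myh1-low set in 10 of them. Its 75th percentile of signal, 422 scanner units, stands apart from the other 3 arrays of the set. It is the highest Myh1-low myofiber at Ramp1 (2.47), Vmn2r-ps54 (4.91), Wdr64 (3.65), LOC664787 (3.17), Slc16a1 (2.71), Tek (2.65), Col1a2 (8.45) and a Myh3 probe (3.51). It is the lowest at a dim Myh8 probe (1.85).

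Actb, a reference gene, reads 1.76 in E9.6 at its brighter probe, far under the other 9 type 2B myofibers, whether taken among all 10 or within the Myh1-high set, and at its second probe the sets differed by 0.23. E9.6 was also far under the other type 2B myofibers at Pygm (1.92), Sucla2 (1.76), Tbx15 (1.63), Esrra (1.71) and Myl3 (1.73). These genes entered their lists with differences of -3.11, -2.80, -2.11, -1.60 and -0.70. Frs2 reads 14.18 in E10.4.

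At myosin genes, E14.3 is lowest of the Myh1-low set at Myh7 (6.76), E11.9 is lowest of the type 2B myofibers at a bright Myh8 probe (14.60) and E8.3 highest at Myh7b (8.33). E12.5 is highest at a dim Myh8 probe (6.4) and a Myh3 probe (5.44), E10.4 at Myh15 (6.33), and E7.7 at the other Myh3 probe (3.95), where E13.3 is the highest of its own set at 1.86.

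Within the Myh1-high set E13.3 is highest at LOC664787 (5.05) and Mybpc1 (14.83) and lowest at Cxcl1 (4.09), and E8.3 is highest at Ramp1 (4.90). E11.9 is highest of all type 2B myofibers at Slc16a1 (5.59). E15.3 is highest of the Myh1-low set at Echs1 (10.24) and lowest at Egfl7 (1.67), both in that set and among all 10.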

How the results depend on the processing

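The single call rests on the processing. The count of called probes was 2 with the 75th percentile as the scale, which moved the median of all tested probes from 0.03 to -0.09, and 4 with a filter on signals well above background, 0 of them lower in both. It was 0 with normexp background correction, without the mouse block, with means per mouse, with slide as a random or a fixed block, within slide 1, with array brightness as a covariate, with all 21 arrays in the fit, with the highest 3 against the lowest 3, with Myh1 as a continuous covariate, and by the methods' t-test with Bonferroni or Benjamini-Hochberg adjustment. Among alternatives chosen after seeing the data it was also 0 within mouse 3, without the 3 myofibers of slide 1 and over probes positive in all 8 myofibers. Leaving out 1 myofiber gave 0 to 249 calls, the highest without E9.5. The cause was not tested. Probes below the floors of the dim arrays have only a bound there. No paired analysis was possible because the replicate numbers only count myofibers within type 2B and no number recurs in both sets. Mouse 3 and slide 1, which hold myofibers of both sets, entered through the blocks and the fits within them given above.

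On the 75th percentile scale the glycolysis and glycogen median moved to -0.47, and the medians of fiber type regulators and of stress genes went from just above 0 to -0.18 each. The medians of the tricarboxylic acid cycle, respiratory chain, neuromuscular junction and fatty acid lists moved to -0.41, -0.38, -0.33 and -0.22. The array measures kept their direction with 3 against 3.

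Of 1842 values for 74 named probes under the alternatives, 39 turned sign, all of them differences that had not passed. At Myh15 these were 0.10 with normexp, 0.02 without the mouse block and with all 21 arrays, 0.01 with the mice of E13.3 and E12.5 exchanged, 0.21 with means per mouse, 0.03 with slide as a random block and with brightness, and 0.20 without slide 1, and 0.05, 0.19 and 0.23 without E9.5, E8.3 and E15.3. At Myh6 they were 0.14 on the 75th percentile scale, 0.03 and 0.33 at its 2 probes with slide as a fixed block and within slide 1, 0.26 with brightness, 0.08 without slide 1, and 0.07 to 0.14 without single myofibers. At Myh14 they were -0.10 without slide 1 at one probe and 0.14 with means per mouse, 0.03 with brightness, 0.50 with 3 against 3 and 0.02, 0.16 and 0.21 without E9.6, E13.3 and E14.3 at the other. At Myh7b they were -0.01 with means per mouse, -0.05 with brightness, -0.13 without slide 1 and -0.07 without E8.3. At Myh8 they were 0.08 with slide as a fixed block and within slide 1 at one probe, and -0.32 on the 75th percentile scale, -0.0 with brightness, -0.12 without slide 1 and -0.09 without E8.3 at another. Actb was 0.26 without slide 1, and 2310065F04Rik was -0.06 within mouse 3. Wdpcp, Cd34, Vmn2r-ps54, Wdr64 and LOC664787 passed without E9.5. They met the filter for testing through the 4 Myh1-high arrays, and without E9.5 the low values lie under the floors of the dim arrays, so these calls carry no support.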
